A study of Mus musculus with 40 samples.

Results

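RNA of 10 genes of the small RNA silencing pathways was described across the 11 RNA libraries of this series: Dicer1, Drosha, Dgcr8, Xpo5, Ddx4, Piwil2, Mael, Pld6, Tdrkh and Mov10. A member was a locus of the deposited RNA table that overlaps one of these genes and lies on its strand. The rule found 8 of the 10 genes, with 1 locus each, among 38540 loci, of which 15023 carry a gene symbol on their own strand. For Dgcr8 and Pld6 no row met the rule. A locus on the strand of each of these genes covers 100.0% of its RefSeq span, but the table names these loci Trmt2a and Mprip, genes of the other strand. They were matched by position only and stay outside all member counts. All 8 members reached a mean of at least 10 RPM, reads per 1000000 reads of the library, the level used here to call a locus detected, as did 9091 of all loci. The loci of Drosha, Xpo5, Tdrkh and Mov10 overlap a locus on the other strand, and whether counting used the strand is not given in the sources used here, so their reads may include that locus.

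The RNA came from mouse germinal-vesicle oocytes, fully grown oocytes still arrested in the first meiotic prophase, picked by hand from ovaries of mice 22 to 25 days old, with 100 to 200 oocytes pooled per sample. A pair of H3K9 methyltransferase genes was deleted conditionally: Ehmt2, which encodes G9A, and Ehmt1, which encodes GLP. The RNA groups were 3 control libraries with the title prefix GKAO, 3 libraries of the G9a conditional knockout (G9a cKO, prefix GKAO), 3 control libraries with the prefix GKAQ, and 2 libraries of the conditional double knockout (G9a-Glp cDKO, prefix GKAQ). H3K9me2, the histone mark that these enzymes place, was measured in 2 control, 2 G9a cKO and 2 cDKO libraries by low-input native chromatin immunoprecipitation. The driver of the deletion, the alleles and the strain of the animals are not given in the sources used here, and the labels do not say whether libraries of a group came from different animals. P-values therefore measure a spread between these libraries, which may in part be technical. In the main RNA fit that spread was drawn largely from loci of similar level, not from each gene's own libraries. Mov10 and the Dgcr8 position had SDs of log2 RPM of 0.694 and 0.289 in G9a cKO. The SEs of their changes were nonetheless close, 0.253 and 0.237. Very small p-values should be read with this in mind.

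As background, microRNAs are cut from nuclear hairpin transcripts by the Microprocessor, the RNase III enzyme DROSHA with its partner DGCR8, carried to the cytoplasm by exportin-5 (Xpo5) and cut again by DICER1. Mouse oocytes carry an oocyte-specific form of DICER1 that makes endogenous small interfering RNAs, and microRNA activity in them is low. The piRNA pathway works without Dicer: PIWI proteins such as PIWIL2 load piRNAs that silence transposons in the germ line, with helpers in perinuclear granules and on the outer mitochondrial membrane. Several germline genes of this kind carry promoters rich in CpG dinucleotides that are repressed in somatic cells, and G9A and GLP are known to take part in that repression in embryonic stem cells.

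Each library was scaled to its reads, 1458868 to 2399680 per RNA library, so values compare libraries for 1 gene and not genes with each other. In such pools, fewer cells with a transcript and less of it per cell cannot be told apart. Oocyte markers dominated: 10 of 10 listed markers, among them Gdf9 and Zp3, summed to between 9820 and 12600 RPM. Of these, Sohlh1 had no read in GKAQ controls. The 12 granulosa-cell markers summed to 185 to 196 RPM in GKAO controls, 137 to 162 in G9a cKO, 134 to 159 in GKAQ controls and 117 to 145 in cDKO, with Nr5a2 the highest in each group, at up to 125 RPM. Theca and stroma markers (5 of 6 matched) and blood markers (3 of 5 matched) summed to at most 5.0 and 4.1 RPM, and Hba-a1 and Hbb-b1 were at 0 in every library. The summed granulosa markers were thus lower in G9a cKO than in GKAO controls without overlap, and overlapped between cDKO and GKAQ controls. Of single detected loci, 25.2% did not overlap, in either direction, between G9a cKO and GKAO controls. Nr5a2 made up much of the sums, at up to 125 RPM in GKAO controls and 108 in G9a cKO. It reached 89.6 RPM in GKAQ controls and 79.1 in cDKO. The other granulosa markers were not compared singly. Foxl2 was at 0 in GKAO controls, Cyp11a1 in G9a cKO and Amhr2 in cDKO. The part of granulosa RNA in the results was not tested. Of the targeted genes, Ehmt1 fell in cDKO, from 68.3 to 90.5 RPM in the controls to 17.6 and 21.3 (log2 fold change -2.06, limma adjusted p = 1.09e-21). Ehmt2 had 5.27 to 8.23 RPM in GKAO controls and 2.09, 6.01 and 0.942 RPM in the libraries labelled G9a cKO replicates 1, 2 and 3, so replicate 2 lay within the control range. Its log2 fold changes of -1.55 in G9a cKO (adjusted p = 0.0971) and -1.45 in cDKO (adjusted p = 0.121) did not pass the test. Which exons were deleted is not given in the sources used here, so Ehmt2 reads may lie outside the deleted part. Results that rest on replicate 2 are given with and without that library. In the G9a cKO fit without it 13522 loci had an unadjusted p under 0.05, against 4044 with it. Adjusted p-values of these fits are therefore hard to compare. Drosha, Mael, Mov10 and Tdrd12 then share 1 adjusted p, since the adjustment can give neighbouring ranks the same value.

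By the limma calls, Mov10 fell in G9a cKO, while in cDKO Mael and Ddx4 rose and Drosha and Dicer1 fell. Only the Mael call held in every alternative setting run. That of Ddx4 was lost in 10 of 14 and that of Dicer1 in 5 of 14. In G9a cKO, 1 of 8 members was called at an adjusted p under 0.05 in limma across all loci, where 1.79% of all loci were called. In cDKO, 4 of 8 members were called, 2 higher and 2 lower, where 6.34% of all loci were called. Of those loci 1665 were higher and 779 lower, and 1290 were higher and 1140 lower when libraries were centred on the median of detected loci. Because expressed loci are called more often, the share among detected loci is the closer background: 5.22% in G9a cKO and 15.8% in cDKO. The difference between the effects was called for 3 of 8 members, Drosha, Dicer1 and Mov10, against 1.08% of all loci and 3.34% of detected loci. Those loci split into 264 positive and 153 negative differences, and into 210 and 251 after centring. The median log2 fold change of the 8 members was 0.08 in G9a cKO and 0.38 in cDKO, beside 0.008 and 0.05 over all detected loci. Mutant libraries lay wholly outside the range of their controls for 5 of 8 members in G9a cKO and for 6 of 8 in cDKO. The same held for 25.2% and 48.6% of all detected loci, so separate groups were common.

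**Figure D1:**
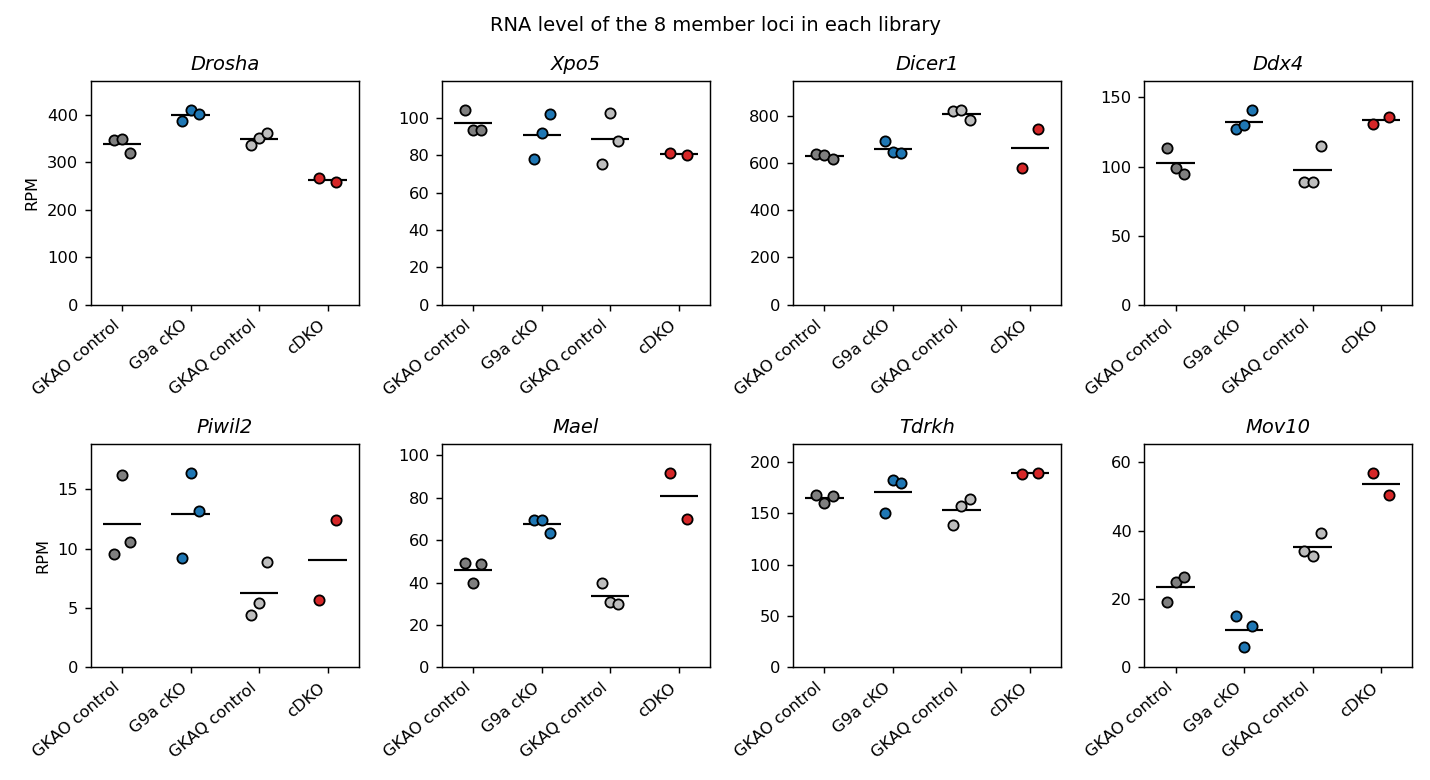
RNA level in RPM of the 8 member loci (1 panel each, linear axis from 0) in every library of the 4 groups; points are libraries and lines are group means. Both cDKO libraries lie above all GKAQ controls for Mael, at 91.7 and 70.0 RPM against 30.1 to 39.6, and below them for Drosha, at 268 and 258 against 335 to 361.

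Drosha encodes the nuclear RNase III that frees microRNA hairpins from primary transcripts. Its locus lies on the plus strand at chr15:12824804-12935243 (GRCm38). It had 348, 348 and 318 RPM in GKAO controls, and 387, 409 and 402 RPM in G9a cKO. In GKAQ controls it had 335, 350 and 361 RPM, and in cDKO 268 and 258 RPM. The groups did not overlap in either comparison, and the mutants lay on opposite sides of their controls. In cDKO Drosha fell by 0.41 on the log2 scale (1.33-fold lower, SE 0.10, limma adjusted p = 0.00151). In G9a cKO its log2 fold change of 0.24 did not pass the test (SE 0.09, adjusted p = 0.165; 0.128 without replicate 2), but passed it with precision weights on the recovered reads (adjusted p = 0.0389). The difference between the effects, -0.65 on the log2 scale (SE 0.13), was called (adjusted p = 0.000409, and 0.00365 with G9a cKO replicate 2 left out). The call in cDKO was lost without the variance trend and robust step (adjusted p = 0.191). It was also lost with the title number as a block, which rests on 1 cDKO library and 1 control (log2 fold change -0.44).

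DGCR8 is the double-stranded RNA-binding partner that holds the hairpin for DROSHA. The locus matched to it by position (minus strand, chr16:18253948-18289249) had 19.2, 25.7 and 25.8 RPM in GKAO controls and 22.1, 26.2 and 33.0 RPM in G9a cKO. It had 27.6, 30.8 and 38.9 RPM in GKAQ controls and 33.0 and 37.9 RPM in cDKO. The groups overlapped in both comparisons, and neither log2 fold change passed the test (0.20, adjusted p = 0.572, and 0.14, adjusted p = 0.725).

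Exportin-5 carries precursor microRNAs out of the nucleus. Xpo5 (plus strand, chr17:46202693-46243512) had 104, 93.7 and 93.8 RPM in GKAO controls and 78.1, 91.8 and 102 RPM in G9a cKO. It had 75.4, 103 and 87.7 RPM in GKAQ controls and 81.4 and 80.0 RPM in cDKO. The groups overlapped throughout. The log2 fold change was -0.11 in G9a cKO (95% interval -0.40 to 0.185, adjusted p = 0.627) and -0.12 in cDKO (95% interval -0.451 to 0.203, adjusted p = 0.644), so neither a small fall nor a small rise could be told from the spread.

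DICER1 cuts precursor microRNAs and long double-stranded RNA. Dicer1 (minus strand, chr12:104687735-104751956) had 640, 633 and 615 RPM in GKAO controls and 691, 648 and 640 RPM in G9a cKO, ranges that meet without overlap. It had 821, 823 and 782 RPM in GKAQ controls and 580 and 745 RPM in cDKO. Both cDKO libraries lay below their controls but were far apart, with 1 below and 1 above the range of the GKAO groups. The G9a cKO value was 0.07 on the log2 scale, with an SE of 0.07, and did not pass the test (adjusted p = 0.478). In cDKO Dicer1 fell by 0.30 (1.23-fold lower, SE 0.08, limma adjusted p = 0.00253). This call rested on cDKO replicate 1: without it the log2 fold change was -0.117 (adjusted p = 0.694). The controls themselves differed, since Dicer1 was higher in GKAQ than in GKAO controls by 0.36 on the log2 scale (SE 0.07, adjusted p = 6.83e-06). With all controls pooled the cDKO value was -0.117 (adjusted p = 0.697). The difference between the effects was -0.37 (SE 0.10, adjusted p = 0.0311; 0.0524 without G9a cKO replicate 2), and it kept its call in 6 of 19 alternatives.

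Of the piRNA members, PIWIL2 is the PIWI protein that takes part in cutting transposon RNA. Piwil2 (minus strand, chr14:70370944-70429624) was near the detection level, with 7 to 31 reads per library. It had 9.60, 16.2 and 10.6 RPM in GKAO controls and 9.18, 16.4 and 13.2 RPM in G9a cKO. It had 4.40, 5.42 and 8.87 RPM in GKAQ controls and 5.69 and 12.4 RPM in cDKO. The mutants overlapped their controls, and the log2 fold changes were 0.09 (95% interval -0.652 to 0.833, adjusted p = 0.894) and 0.50 (95% interval -0.331 to 1.33, adjusted p = 0.565). The interval in cDKO thus runs from a fall of 0.331 to a rise of 1.33 on the log2 scale, and the direction could not be told.

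Ddx4 encodes the mouse VASA homologue, a DEAD-box RNA helicase of germ cell granules. Ddx4 (minus strand, chr13:112595419-112652310) had 114, 99.0 and 94.9 RPM in GKAO controls and 127, 130 and 141 RPM in G9a cKO. It had 88.6, 89.2 and 115 RPM in GKAQ controls and 131 and 136 RPM in cDKO. All mutant libraries lay above all controls of their prefix. In cDKO Ddx4 rose by 0.46 (1.38-fold, SE 0.15, limma adjusted p = 0.0405), and in G9a cKO the value was 0.37 on the log2 scale, which did not pass the test (SE 0.14, adjusted p = 0.166). These effects differed by 0.09 (95% interval -0.311 to 0.488, adjusted p = 0.807). The cDKO call was close to the threshold: it was lost in 10 of 14 alternatives, among them the centring of libraries on the median of detected loci (0.37, adjusted p = 0.161) and each of the omissions of GKAQ control 1, GKAQ control 2, cDKO 1 and cDKO 2 (adjusted p = 0.137, 0.199, 0.126 and 0.199).

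Mael encodes Maelstrom, a germ-granule protein needed for transposon silencing in the male germ line. Mael (minus strand, chr1:166201385-166238876) had 49.4, 39.8 and 48.6 RPM in GKAO controls and 69.3, 69.4 and 63.6 RPM in G9a cKO. It had 39.6, 30.8 and 30.1 RPM in GKAQ controls and 91.7 and 70.0 RPM in cDKO. Every mutant library lay above every control, of either prefix. In cDKO Mael rose by 1.27 on the log2 scale (2.41-fold, SE 0.21, limma adjusted p = 2e-07). The call held in all 14 alternatives run, with log2 fold changes of 1.04 to 1.46. Among these, the title number as a block rests on 1 cDKO library and 1 control (log2 fold change 1.18). G9a cKO gave a log2 fold change of 0.56 (1.47-fold, SE 0.19), which did not pass the test (adjusted p = 0.103; 0.128 without replicate 2), but passed it with only detected loci tested (adjusted p = 0.0331) and with all controls pooled (adjusted p = 0.00187). The larger value in cDKO was not shown to differ from that in G9a cKO (difference 0.71, 95% interval 0.162 to 1.26, adjusted p = 0.169).

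Mael and Ddx4, the members called higher in cDKO, have CpG-rich start windows that hold the hexamer CACGTG. This is the palindromic E-box read by MAX and its partners. The 250 bases before the RefSeq start of Mael (GRCm38.p6, minus strand, 5′ to 3′) are shown because its rise was the 1 member call that held in every alternative run. Capitals mark CACGTG.
Mael, chr1:166238745-166238994: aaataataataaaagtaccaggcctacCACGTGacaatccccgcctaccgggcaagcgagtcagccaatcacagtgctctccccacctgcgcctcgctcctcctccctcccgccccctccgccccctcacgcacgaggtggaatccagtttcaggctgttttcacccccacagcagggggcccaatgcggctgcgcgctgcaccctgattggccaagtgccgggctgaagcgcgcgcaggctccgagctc
The Mael window holds 18 CpG and that of Ddx4 31, where the median over all 32851 start windows of the same length was 6. The Ddx4 window also holds GCGGGAA, the E2F-type motif TTCCCGC on the other strand, with no overlap of the 2 matches. It precedes a start that RefSeq lists for Ddx4 but lies within the RefSeq span of the gene, which runs further upstream. CACGTG occurs in 6.02% of all such windows and TTCCCGC, on either strand, in 3.82%. Both motifs hold a CpG themselves, and their share among windows as rich in CpG as these was not counted. Neither was found in the windows of Drosha, Xpo5, Dicer1, Tdrkh and Dgcr8, which hold 19 to 39 CpG, nor in either start of Mov10, with 5 and 11 CpG. One of the 2 Pld6 starts holds CACGTG. The motifs were chosen with the results known, and a match describes letters only.

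PLD6 is the mitochondrial nuclease that forms the ends of piRNA precursors. The locus matched to Pld6 by position (minus strand, chr11:59780771-59787698) had between 3 and 16 reads per library, 1.25 to 6.67 RPM. Its log2 fold changes of -0.54 in G9a cKO (adjusted p = 0.541) and -0.37 in cDKO (adjusted p = 0.713) came from overlapping groups. At this depth a change of the locus was not detectable.

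TDRKH is a Tudor-domain protein that tethers PIWI proteins to mitochondria while piRNAs are trimmed. Tdrkh (plus strand, chr3:94413256-94434974) had 167, 160 and 167 RPM in GKAO controls and 150, 182 and 179 RPM in G9a cKO. It had 138, 157 and 164 RPM in GKAQ controls and 188 and 189 RPM in cDKO, where both libraries lay above all controls. The log2 fold changes were 0.04 (adjusted p = 0.823) and 0.31 (SE 0.13, adjusted p = 0.165), and neither passed the test.

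MOV10 is an RNA helicase that associates with Argonaute proteins and restricts retroelements. Mov10 (minus strand, chr3:104794836-104818563) had 19.2, 25.1 and 26.4 RPM in GKAO controls and 15.0, 6.01 and 12.2 RPM in G9a cKO. It had 33.9, 32.5 and 39.4 RPM in GKAQ controls and 56.9 and 50.4 RPM in cDKO. The groups did not overlap in either comparison, and the mutants lay on opposite sides of their controls, as for Drosha but in the reverse direction. In G9a cKO Mov10 fell by 1.17 on the log2 scale (2.26-fold lower, SE 0.25, limma adjusted p = 0.000702). In cDKO its log2 fold change of 0.61 did not pass the test (1.52-fold, SE 0.28, adjusted p = 0.238). The difference between the effects was 1.78 (SE 0.38, adjusted p = 0.00105). The call in G9a cKO was lost in 4 of 15 alternatives: on log2(RPM + 1) (adjusted p = 0.22), with precision weights (0.0881), without the variance trend and robust step (0.181), and without G9a cKO replicate 2, where Mov10 had 11 reads. Without that library the log2 fold change was -0.78 (adjusted p = 0.128). The 2 effects then differed by 1.39 (adjusted p = 0.0361). The difference lost its call in 4 of 19 alternatives, among them the title number as a block (1.72), where the cDKO part rests on 1 cDKO library and 1 control.

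**Figure D2:**
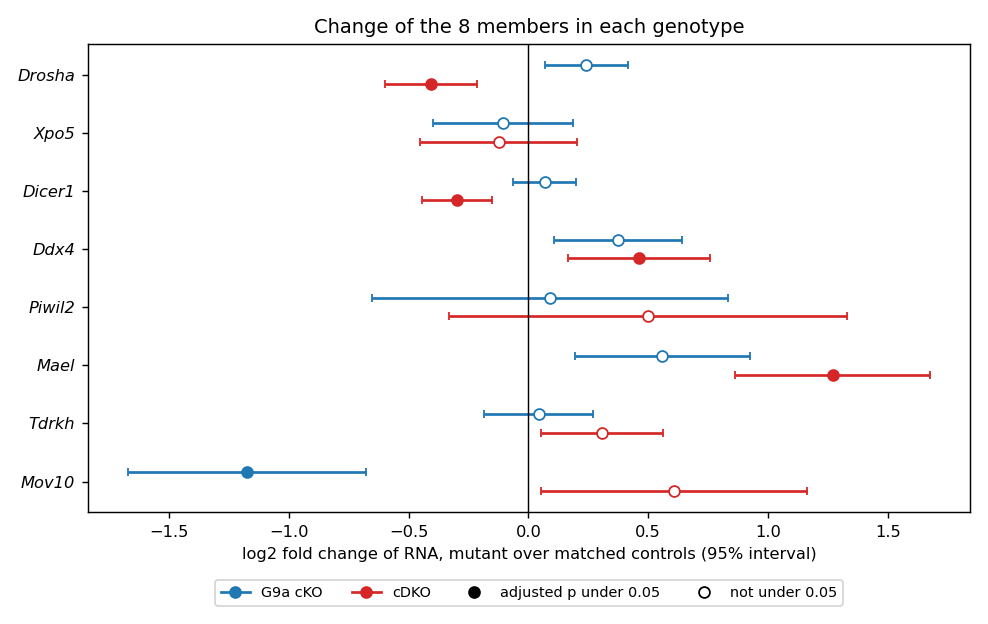
Log2 fold change of RNA (x axis) of the 8 members in G9a cKO against GKAO controls (blue) and in cDKO against GKAQ controls (red), with 95% intervals from limma; filled points passed an adjusted p of 0.05 over all loci. Mael reaches 1.27 in cDKO, and Drosha and Mov10 lie on opposite sides of 0 in the 2 genotypes.

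Some libraries of mutants and controls share the number in their title, which the labels do not explain, and values within a number were compared as a check. Mael was higher in the mutant by 0.65 and 0.45 on the log2 scale within GKAO109 and GKAO115, and by 1.18 within GKAQ55. Ddx4 was higher by 0.26, 0.51 and 0.61 in the same order. Drosha differed by 0.155 and 0.349 within the GKAO numbers and by -0.44 within GKAQ55, so its opposite directions were present within numbers. Mov10 differed by -0.55 and -1.62 within the GKAO numbers and by 0.63 within GKAQ55. Dicer1 differed by only -0.14 within GKAQ55. GKAQ51, GKAQ54 and GKAQ57 hold libraries of 1 group each and give no such value. The cDKO values with the title number as a block therefore repeat those within GKAQ55, 1 library against 1, and are no separate check.

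The control sets were also compared with each other, since each mutant was read against its own. Of the 8 members, 1 was called between GKAQ and GKAO controls, Dicer1, described above, where 3.87% of all loci and 14.8% of detected loci were called. The controls did not overlap for 4 of 8 members, as for 36.9% of all detected loci. Besides Dicer1 these were Mael (log2 difference -0.46, adjusted p = 0.204), Piwil2 (-0.99, adjusted p = 0.16) and Mov10 (0.59, adjusted p = 0.258). None of these 3 passed the test.

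Likeness of pattern was read from the Pearson correlation of log2 RPM over the 11 libraries, among 6932 named detected loci that are not members. The closest locus was Tbc1d23 for Mael (r = 0.983), Sp1 for Ddx4 (r = 0.956), Tanc1 for Drosha (r = 0.953), 2810474O19Rik for Dicer1 (r = 0.955) and Pdia6 for Mov10 (r = 0.953). Each is the highest of 6932 values over libraries that share groups, and carries no test.

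A wider list of 51 genes of the same pathways put the members in context. It held 25 genes of the microRNA and small interfering RNA side, of which 20 were matched, and 26 of the piRNA side, of which 24 were matched. Of these 44 genes, 34 were detected. In G9a cKO 2 of 44 were called, both lower, and both on the piRNA side: Tex15 and Tdrd12. In cDKO 5 of 44 were called, all lower: Tex15, Tdrd9, Tdrd12 and Tdrd1 of the piRNA side, and Adar of the other. All these genes were detected, so the counts are 5.88% and 14.7% of the 34 detected genes, near the 5.22% and 15.8% of all detected loci. On the microRNA side in G9a cKO the count was 0 of 20 in limma, and 7 of 20 had an unadjusted p under 0.05. Such a p was found for 10.5% of all loci, and for 1931 of 9091 when only detected loci were fitted. The median log2 fold changes over the 44 genes were -0.01 and 0.12, close to those of detected loci. In the main setting no gene of the wider list was called higher in either mutant, where Mael and Ddx4 of the members were. This contrast depends on the threshold. The Ddx4 call (adjusted p = 0.0405) was lost in 10 of 14 alternatives. In cDKO, Mov10l1 (log2 fold change 0.91, limma adjusted p = 0.0511) and Ddx5 (0.40, adjusted p = 0.0558) lay above all their controls and came close to a call.

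TEX15 is a germ cell protein that works with PIWI proteins in transposon silencing in male germ cells. Tex15 had 119, 113 and 128 RPM in GKAO controls and 22.1, 19.7 and 18.8 RPM in G9a cKO. It had 147, 125 and 180 RPM in GKAQ controls and 15.9 and 27.3 RPM in cDKO. All 5 mutant libraries lay far below all 6 controls. It fell by 2.57 on the log2 scale in G9a cKO (5.94-fold lower, SE 0.18, limma adjusted p = 1.65e-42; -2.55 without replicate 2) and had a log2 fold change of -2.84 in cDKO (7.15-fold lower, SE 0.20, adjusted p = 1.48e-41). The effects did not differ beyond their error (-0.27, adjusted p = 0.492), and both calls held in all alternatives run, 15 and 14.

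TDRD9 is a Tudor-domain helicase of the piRNA pathway. Tdrd9 had 61.7, 69.1 and 84.4 RPM in GKAO controls and 71.8, 63.9 and 51.8 RPM in G9a cKO, which overlapped (-0.20, adjusted p = 0.417). It had 73.5, 79.2 and 75.4 RPM in GKAQ controls and 35.9 and 38.5 RPM in cDKO, where it fell by 1.03 (2.04-fold lower, SE 0.19, limma adjusted p = 1.04e-05). The difference between the effects, -0.83, did not pass the test (adjusted p = 0.089). This call held in all 14 alternatives.

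The other 3 calls were less stable. Tdrd12, a partner of PIWI proteins, had 141, 138 and 142 RPM in GKAO controls and 82.2, 85.2 and 128 RPM in G9a cKO. It had 101, 105 and 101 RPM in GKAQ controls and 74.0 and 71.7 RPM in cDKO, below all controls as in G9a cKO. Its log2 fold changes of -0.54 (adjusted p = 0.0118; 0.128 without replicate 2) and -0.49 (adjusted p = 0.0329) lost their calls in 7 of 15 and 10 of 14 alternatives. Without any 1 of the 5 GKAQ libraries the cDKO value of Tdrd12 kept between -0.52 and -0.47 and did not pass the test. Tdrd1, a Tudor-domain scaffold that binds PIWIL2, had 684 to 713 RPM in GKAQ controls and 523 and 601 RPM in cDKO. It fell by 0.32 (SE 0.08, adjusted p = 0.00109), a call lost without cDKO replicate 1 (-0.22, adjusted p = 0.166). Adar, which edits adenosine to inosine in double-stranded RNA, had 114 to 124 RPM in GKAQ controls and 91.1 and 72.3 RPM in cDKO. It fell by 0.54 (SE 0.14, adjusted p = 0.00483), a call lost without cDKO replicate 2 (-0.38, adjusted p = 0.241).

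**Figure D3:**
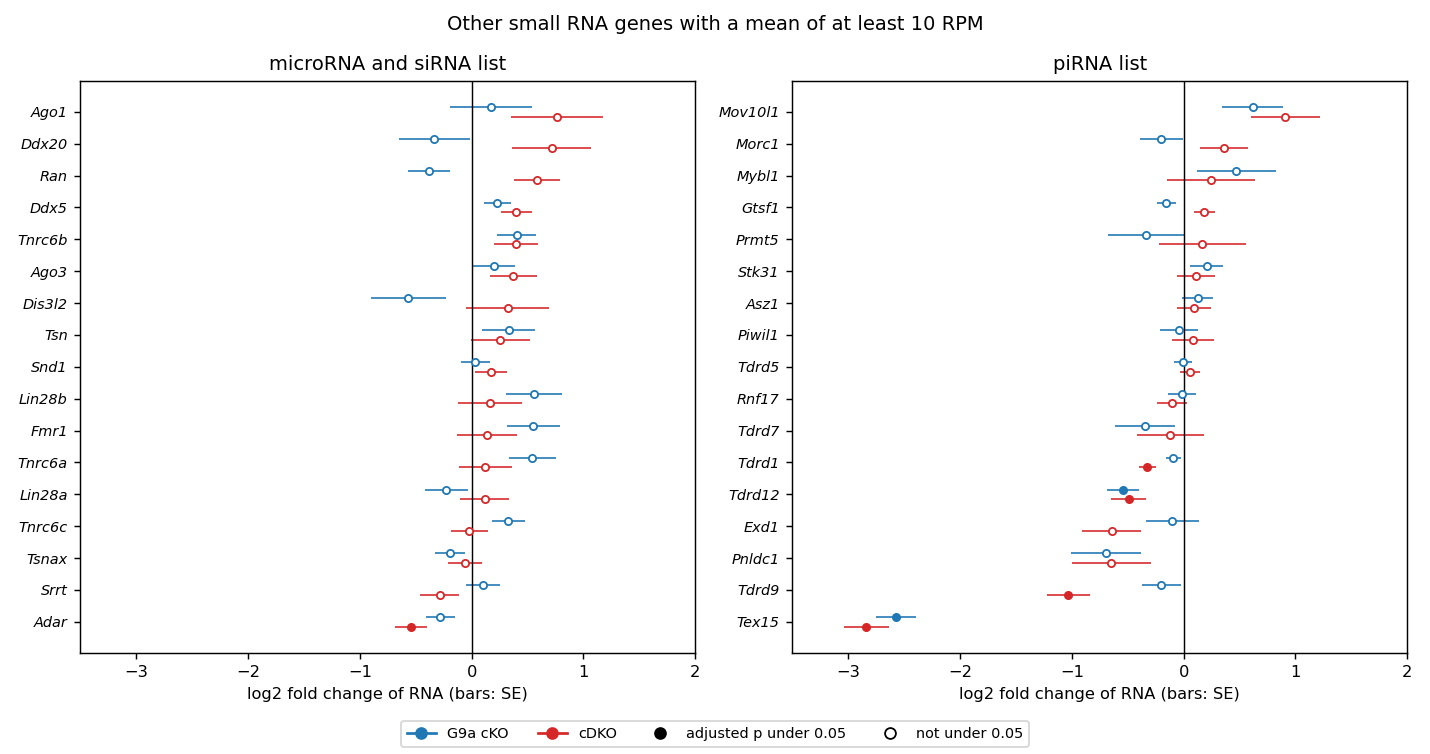
Log2 fold change of RNA (x axis, bars are SE) of the 34 detected genes of the wider list, split into microRNA and small interfering RNA genes (left) and piRNA genes (right), in G9a cKO (blue) and cDKO (red). Filled points passed an adjusted p of 0.05: Tex15, at -2.57 and -2.84, stands far to the left of the other genes in both genotypes.

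H3K9me2 gave a second readout of the member loci. Values are RPM per 10 kb window over all windows that touch a locus. They describe how the mark is spread along the genome, so a change of its total amount cannot be seen. Controls had 7048784 and 19128881 reads, and mutants 1109191 to 1881848, so a member locus had 6 to 128 reads in a mutant library. In controls the 8 members lay between the 5.5 and the 43.4 percentile of the 13850 named loci tested, that is, below the median locus, with Ddx4 the lowest. The median locus of each library had 3.77 to 4.25 RPM per window.

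No member was called in limma in either genotype (0 of 8 in each), where 0.0% of the 13850 loci were called in G9a cKO and 0.0% in cDKO. In each genotype 2 of 8 members had an unadjusted p under 0.05, as had 3547 and 2725 of all loci. The log2 fold change was positive for 6 of 8 members in G9a cKO and 7 of 8 in cDKO, with medians of 0.21 and 0.37 beside 0.016 and 0.147 over all loci tested. In simulated libraries of these depths, with 1 spread for every locus, 0 of 200 loci changed 2-fold and 198 of 200 raised 8-fold were called. Changes near 2-fold were thus not detectable in that simulation, whose spread and number of changed loci may differ from the data. With 10 kb added on each side of a locus, 1649 of 14889 loci were called in G9a cKO.

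Drosha had 3.36 and 3.53 RPM per window in controls, then 5.74 and 5.33 (G9a cKO) and 5.22 and 4.56 (cDKO). Both mutants lay above both controls (log2 fold change 0.69, adjusted p = 0.0778, and 0.50, adjusted p = 0.199). Xpo5 had 3.18 and 3.43 in its controls, 4.09 and 3.79 (G9a cKO) and 4.99 and 5.53 (cDKO), with log2 fold changes of 0.25 (adjusted p = 0.379) and 0.67 (adjusted p = 0.165). Mov10 had 3.83 and 3.40 in the control libraries, 5.56 and 8.72 (G9a cKO) and 5.03 and 4.96 (cDKO), with log2 fold changes of 0.95 (adjusted p = 0.0868) and 0.47 (adjusted p = 0.331). For these 3 loci every mutant library lay above both controls, which serve both genotypes. In cDKO the libraries also lay above both controls for Mael and Tdrkh. The share of all loci where this holds was not counted, so it is not read as a trait of the members. The median locus was also higher in both cDKO libraries (4.20 and 4.25 RPM per window) than in both controls (3.85 and 3.82). In G9a cKO it was 3.77 and 3.95. For Drosha and Mov10 the RNA lay above its controls in one genotype and below them in the other. Mael had 3.12 and 3.97 in controls, then 2.83 and 3.38 (G9a cKO) and 4.06 and 4.38 (cDKO), and Ddx4 had 2.80 and 2.76, 2.77 and 3.22, and 2.24 and 3.42. For the 2 members whose RNA was called higher in cDKO, H3K9me2 there was also read. Its log2 fold change was 0.26 for Mael (95% interval -0.243 to 0.765) and -0.01 for Ddx4 (95% interval -0.686 to 0.675). Dicer1, Piwil2 and Tdrkh had 1.80 to 5.75 RPM per window over the 6 libraries, with adjusted p of 0.369 to 0.913.

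**Figure D4:**
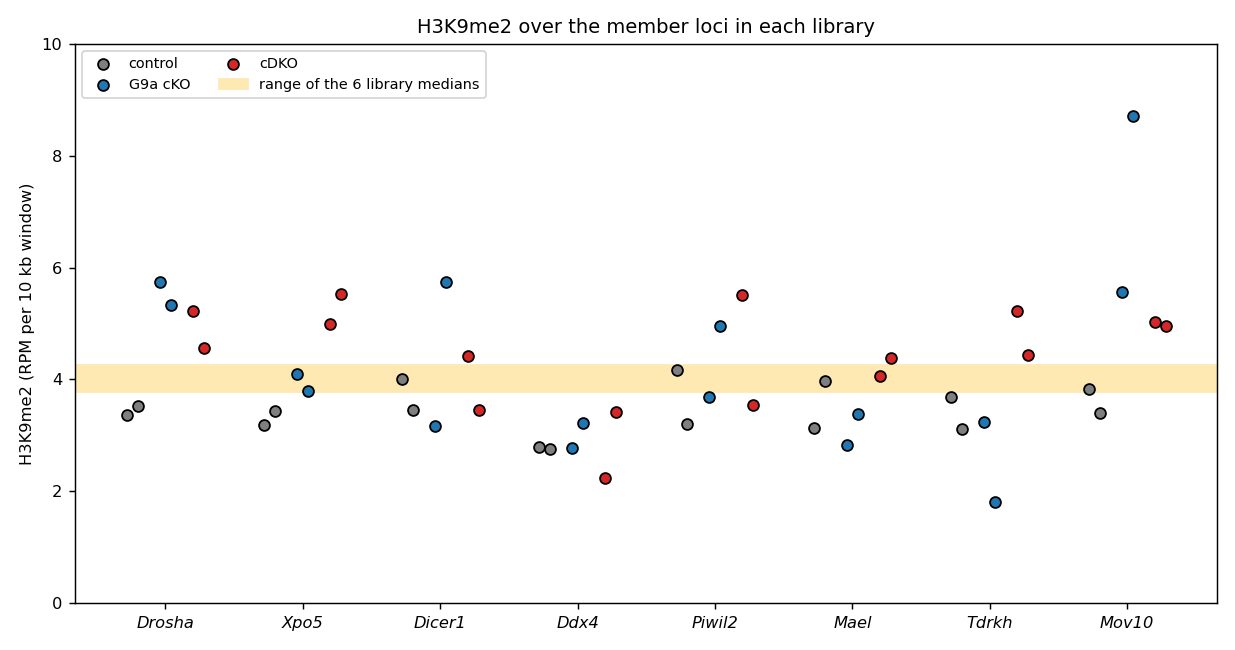
H3K9me2 in RPM per 10 kb window (y axis, from 0) over each member locus in the 2 control, 2 G9a cKO and 2 cDKO libraries; the band spans the medians of the 6 libraries over the 13850 loci tested, 3.77 to 4.25. Mutant points of both genotypes lie above the shared controls for Drosha, Xpo5 and Mov10, as do the cDKO points for Mael and Tdrkh. How many of all loci show the same was not counted. Ddx4 lies below the band throughout.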

How the data were processed

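The authors deposited the RNA table (1 column per library, 38540 loci) and the H3K9me2 table (272158 windows of 10 kb) as log2 values, and replicates were not pooled. Neither table names a unit. From the values, they are log2 RPM, where a feature with no read stands at 0.9 read: 100.0% of values came out as whole reads (tolerance 0.05 read). Per the submitters' processing notes, Trim Galore, Bowtie2, HISAT2 2.1.0, Bismark 0.19.0 and GRCm38 were used. The counting method is not given in the sources used here. For H3K9me2, 4 columns match no sample and were not used.

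Gene symbols came from the RNA table. Dgcr8 and Pld6 were placed by RefSeq GRCm38.p6 positions. The authors' log2 values were tested with limma 3.58.1 (R 4.3.3) in 1 fit over all 11 libraries, with a mean per group, variance trend and robust moderation, over all loci. P-values are two-sided, with Benjamini-Hochberg adjustment over all loci per contrast, and called at an adjusted p under 0.05. H3K9me2 reads were summed over the windows touching each named locus with a mean of at least 20 reads (13850 loci) and tested likewise. Fold changes carry no added pseudocount. The RNA loci tested, and the shares over all loci, include 8635 with no read in any library. Counts were also simulated at these depths for 38540 loci, with 1 spread for every locus. In cDKO 200 detected loci were changed, some 2-fold and some 4-fold. Against GKAQ controls, 53% of those changed 2-fold and 100% of those changed 4-fold were recovered, with 9 other loci called. Loci with fewer reads were not among those changed.

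The members and lists were chosen with earlier results of these data known. Named are all 10 members, the wider-list genes called in a mutant or in the difference, and the most similar gene of each called member. Mov10l1 and Ddx5 are named as close to a call in cDKO. Start windows came from RefSeq (GRCm38.p6): 9 of the 10 members had one. Python 3.11.15, pandas 2.3.3 and matplotlib 3.10.9 made tables and figures. Bisulphite, input and IgG libraries were not analysed here. The design foresaw whole-number counts as well as log2 values, and the test for log2 values was used. The title number was used as a block only as an alternative, since the labels do not say that it pairs libraries. The alternatives were filters, the scale of low values, centring, precision weights, the groups fitted, pooled controls, the title number as a block, the variance model, the regions for H3K9me2 and the omission of each library.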

Additional observations from a re-analysis of the deposited data

Results flagged for a closer look

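The effects of the 2 genotypes, each against the controls of its own prefix, differed for 3 members and for 1 gene of the wider list by limma's test of the difference itself, cDKO minus G9a cKO on the log2 scale, adjusted over all loci. The difference was -0.649 for Drosha (adjusted p = 0.000409), which lay above its controls in 3 of 3 G9a cKO libraries and below them in 2 of 2 cDKO libraries. It was 1.782 for Mov10 (adjusted p = 0.00105), which lay below in 3 of 3 and above in 2 of 2. The Mov10 call was lost on log2(RPM + 1) (adjusted p = 0.26), with precision weights (0.0554) and without the variance trend and robust step (0.232). It was also lost with the title number as a block. That of Drosha was lost without the trend and robust step (0.232). It was -0.366 for Dicer1 (adjusted p = 0.0311), where the controls of the 2 prefixes differed as well, and with all controls pooled it was -0.004 (adjusted p = 0.982).

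Ran, the GTPase that powers exportin-5 among other nuclear carriers, had a difference of 0.965 (adjusted p = 0.0494). It had 51.4, 64.4 and 66.8 RPM in GKAO controls, 32.6, 54.6 and 56.0 RPM in G9a cKO, 36.5, 47.5 and 47.8 RPM in GKAQ controls, and 55.2 and 77.1 RPM in cDKO. Neither mutant differed from its own controls at an adjusted p under 0.05 (-0.38, adjusted p = 0.23, and 0.58, adjusted p = 0.0694). The difference lost its call in 12 of 19 alternatives, among them the omission of G9a cKO replicate 1 (0.71, adjusted p = 0.324), of cDKO replicate 2 (0.725, adjusted p = 0.354), and of GKAO control 2 or 3 (adjusted p = 0.113 and 0.137) or GKAQ control 2 or 3 (adjusted p = 0.0677 and 0.0645).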

How the results depend on the processing

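The rise of Mael and the fall of Tdrd9 in cDKO, and the fall of Tex15 in both genotypes, were called in all alternatives run. Other calls depended on the setting, and the cause was not tested. With the title number as a block, every cDKO value rests on 1 cDKO library and 1 control, both of GKAQ55. Members called in G9a cKO numbered 1, and 2 with only detected loci or with controls pooled, 0 on log2(RPM + 1) or without variance trend and robust step, and 0 to 1 when a library was left out. With precision weights the count of 1 was Drosha in place of Mov10. In cDKO they numbered 4, and 2 on log2(RPM + 1), 1 without the trend, 1 with the title number as a block, and 2 to 4 with a library left out. The difference between effects gave 3, and 1 on log2(RPM + 1), 1 with precision weights, 0 without the trend and 1 with the block. Between controls the count was 1, and 2 with only detected loci, 0 on log2(RPM + 1) and 0 without the trend. The wider list gave 2 in G9a cKO, and 1 on log2(RPM + 1), with precision weights or without the trend, and 1 to 3 with a library left out. In cDKO it gave 5, and 9 with only detected loci, 3 on log2(RPM + 1), 2 without the trend, 8 with controls pooled, and 3 to 5 with a library left out. With controls pooled, the log2 fold changes in G9a cKO turned to -0.034 for the Dgcr8 position and -0.113 for Dicer1. With the block, Tdrkh in G9a cKO turned to -0.007. With a library left out, values in G9a cKO ranged from -0.101 to 0.321 for Piwil2 and from -0.008 to 0.132 for Tdrkh, and in cDKO from -0.065 to 1.063 for Piwil2. H3K9me2 gave 0 members in G9a cKO, and 1 with 10 kb flanks (Drosha) and 0 to 1 with a library left out (Mov10, without G9a cKO replicate 1).

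Counts over all loci moved too. In G9a cKO 689 loci were called, and 34 on log2(RPM + 1), 434 with precision weights, 179 without the trend, 1197 with controls pooled and 379 without G9a cKO replicate 2. In cDKO 2444 were called, and 1158 on log2(RPM + 1), 1154 without the trend, 972 with the block and 1562 without cDKO replicate 1. The difference gave 417, and 102 on log2(RPM + 1), 193 with precision weights, 82 without the trend and 1402 with controls pooled. It gave 277 without GKAQ control 3 and 14705 without GKAQ control 1, of which 14162 were positive. All loci include 8635 with no read in any library, whose log2 values are set by library depth alone. How many of the 14705 are such loci was not counted. Between controls 1490 were called, and 421 on log2(RPM + 1) and 109 without the trend. For H3K9me2 in G9a cKO 0 loci were called, and 1649 with flanks and 574 without G9a cKO replicate 1. Low read numbers limit what can be seen for Piwil2, Mov10, the Pld6 position and H3K9me2.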
